A study of Homo sapiens with 12 samples.

Results

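The genes of the hexosamine pathway and of protein O-GlcNAc cycling were followed in a human embryonic kidney cell line, HEK293, that carries a tetracycline-inducible TRPM7 channel. Members were taken by gene symbol with no threshold on their values: GFPT1, GFPT2, GNPNAT1, PGM3, UAP1, NAGK, OGT and OGA, which older annotations call MGEA5. The set was selected on earlier results of the same log2 MAS5 signals over the study's groups, so the values below describe these genes and are no independent support for the choice. The platform annotation listed 18 of the 54675 probe sets under 6 of the 8 symbols. It listed none under GFPT2 or PGM3, which were not analysed here. Of the 18 probe sets, 17 passed a filter on low signal, and all the genes with a probe set kept at least 1.

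TRPM7 is a magnesium- and calcium-permeable channel fused to a kinase. The data are total RNA profiles on Affymetrix arrays, 12 in all, in 4 groups of 3. The groups were the WT channel line with tetracycline, the WT channel line untreated, the mutant line with tetracycline and the mutant line untreated. The mutant channel lacks the whole kinase domain at its C-terminus, and the study used it as a nonfunctional control for the inducer. Both are stable lines kept in 5 ug/mL blasticidin, and the treated cells received 1 ug of tetracycline for 72 hours, with no volume stated. The labels do not say whether a line is 1 clone, nor whether replicates came from separate cultures, so p-values measure the spread between these arrays, which may be technical.

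The hexosamine pathway turns a side stream of glucose into UDP-N-acetylglucosamine, the activated sugar used for N-glycans, O-glycans, glycosaminoglycans and hyaluronan. GFPT1 and its relative GFPT2 set the pace by moving an amide nitrogen from glutamine to fructose phosphate. GNPNAT1 acetylates the product, PGM3 moves its phosphate and UAP1 joins it to uridine phosphate. NAGK brings salvaged N-acetylglucosamine back in. OGT then places single N-acetylglucosamine residues on nuclear and cytosolic proteins, and OGA removes them. In mammalian cells under endoplasmic reticulum stress, the factors XBP1 and ATF4 are known to raise GFPT1 transcription.

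Facts of the whole series that touch these genes are few. All 4 HEK line markers, IRS4, PAX2, NEFL and KRT18, passed the filter, and 0 of the 3 blood and immune markers with a probe set did. Of 6 fibroblast and endothelial markers, 2 passed, COL1A1 and PECAM1. Of 3 tested TRPM7 probe sets, 0 rose past the threshold with tetracycline in WT cells and 0 in mutant cells. In WT cells 1 of the 3 was called lower (-2.00 ± 0.63, limma adjusted p = 0.0411), and the other two stood at -0.85 ± 0.30 and 0.11 ± 0.57 (0.0643 and 0.915). TRPM7 signal therefore does not check the tetracycline labels. Where those probes lie relative to the introduced construct was not analysed. The 3′ to 5′ signal ratio of the actin control probes, a sign of RNA integrity, ran from 0.63 to 1.36 (log2) over the 6 WT line arrays and from 0.23 to 0.29 over the 6 mutant line arrays. The same ratio of GAPDH ran from 0.015 to 0.17 over the WT line arrays and from 0.038 to 0.14 over the mutant line arrays, with overlap. The 18S control signal (log2) ran from 8.22 to 9.44 over the WT line arrays and from 6.76 to 8.12 over the mutant line arrays, with no overlap. The part of these in the differences between the lines was not tested. The median SD of a tested probe set was 0.33 with tetracycline and 0.30 untreated in the WT line, and 0.19 with tetracycline and 0.17 untreated in the mutant line.

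GFPT1, the enzyme that opens the pathway, rose in the WT line. With tetracycline, 3 of its 4 probe sets rose, by 0.75 to 1.88 on the log2 scale, while none of the 4 was called in the mutant line. There 0% of all 29553 tested probe sets were called, so the missing mutant calls are not particular to GFPT1. Across all the genes of the set, 4 of 17 tested probe sets were called in the WT induction (tetracycline minus untreated), all higher. That is 23.5% of the members, against a background of 16.9% of all 29553 tested probe sets called in either direction with 7.83% called higher and 9.11% lower. The 4 calls belong to GFPT1 and OGA alone, and probe sets of 1 gene are not independent. In bulk RNA, a change in the share of cells that express a gene and a change in its RNA per cell cannot be told apart. Calls rest on limma's moderated test over all tested probe sets, with a Benjamini-Hochberg adjusted p under 0.05. Taking 1 probe set per gene, the one brightest on average, 1 of 6 genes was called higher, GFPT1, where 9.41% of 13067 genes were. The median log2 difference of the members' tested probe sets was 0.13, against 0.023 over all tested probe sets. By 1 probe set per gene the members' median was -0.064, against 0.032 over all 13067 genes, so it lay lower, not higher.

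GFPT1 lies on chromosome 2 (GRCh38.p14, chr2:69319780-69387227, minus strand). Its probe set 202722_s_at read 11.87, 12.33 and 12.06 (log2 signal) on the 3 WT line arrays with tetracycline, against 10.62, 10.82 and 10.72 on the 3 untreated WT line arrays. In the mutant line it read 11.09, 10.96 and 10.88 with tetracycline, against 10.76, 10.82 and 10.84 untreated. The WT arrays with tetracycline lay above all other arrays, and the mutant arrays with tetracycline lay just above the untreated mutant arrays without overlap. The mean was 12.09 ± 0.23 in WT cells with tetracycline and 10.72 ± 0.10 in untreated WT cells, and 10.98 ± 0.10 in mutant cells with tetracycline and 10.81 ± 0.038 in untreated mutant cells (SD, n = 3 each). The WT induction was 1.37 ± 0.14 (log2 difference ± SE), a 2.58-fold rise with a limma adjusted p of 0.000102. The mutant induction was 0.17 ± 0.14, with a limma adjusted p of 1.

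The 202721_s_at probe set of GFPT1 gave the highest response of the set. It read 11.42, 12.17 and 11.66 in WT cells with tetracycline, against 9.94, 9.92 and 9.75 in untreated WT cells. Its mutant arrays read 10.63, 10.58 and 10.08 with tetracycline, against 10.43, 10.11 and 10.00 untreated. The WT groups were apart by more than a log2 unit at their nearest arrays, and the mutant groups overlapped. Its WT induction was 1.88 ± 0.20, a 3.68-fold rise (limma adjusted p = 0.000144), and its mutant induction was 0.25 ± 0.20 (limma adjusted p = 1).

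The other GFPT1 probe sets did not move alike. For 227027_at the signal was 10.73, 10.77 and 10.84 in WT cells with tetracycline, against 10.15, 10.07 and 9.86 in untreated WT cells. The mutant values lay between 9.91 and 9.97 with tetracycline and between 9.93 and 10.10 untreated. The WT induction was 0.75 ± 0.13, 1.69-fold, with a limma adjusted p of 0.00224, and the mutant induction was -0.045 ± 0.13 (limma adjusted p = 1). For 226886_at the WT arrays read 10.99, 10.20 and 10.55 with tetracycline, against 10.56, 10.64 and 10.15 untreated, and the groups overlapped (0.13 ± 0.19, limma adjusted p = 0.678). Over the 12 arrays, the 3 probe sets that rose correlated at Pearson r = 0.89 to 0.97 with each other, and 226886_at correlated with them at 0.21 to 0.56. These arrays share the 4 groups, so the correlations describe the same steps as the group means. The 202722_s_at and 202721_s_at calls held under each of 21 alternative settings, each array left out in turn included, with differences of 1.245 to 1.495 and of 1.67 to 2.12. The 227027_at call was lost in 1 setting, chosen after seeing the data, that left out the 4 arrays of replicate 3 (0.64, limma adjusted p = 0.0904).

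**Figure D1:**
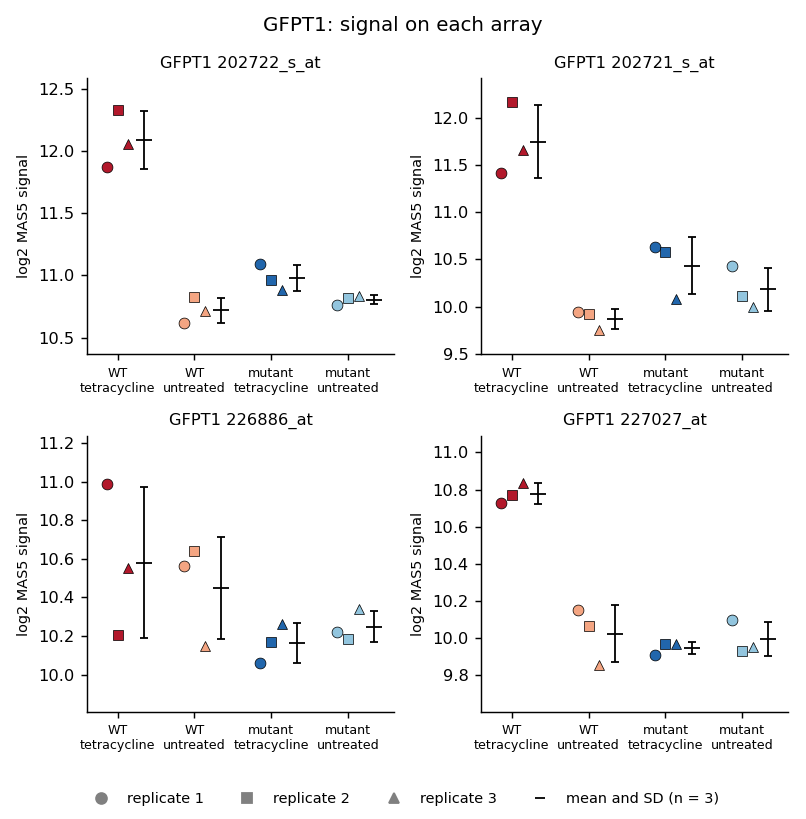
Log2 MAS5 signal of the 4 GFPT1 probe sets on each of the 12 arrays, with points for single arrays and bars for the mean and SD of each group of 3. In 202722_s_at, 202721_s_at and 227027_at the WT arrays with tetracycline sit above all other arrays, and in 226886_at the groups of the WT line overlap.

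The response of GFPT1 was also set against that of the other line directly. In the difference of inductions (WT minus mutant), 2 of 17 member probe sets were called, both of GFPT1 and both higher, against a background of 0.139% of all tested probe sets in either direction, 0.0643% higher and 0.0744% lower. By 1 probe set per gene, 1 of 6 genes was called higher, against 0.0765% of genes higher and 0.0689% lower. The difference was 1.20 ± 0.19 for 202722_s_at (limma adjusted p = 0.0405) and 1.63 ± 0.29 for 202721_s_at (limma adjusted p = 0.0485). It was 0.80 ± 0.19 for 227027_at (limma adjusted p = 0.0919) and 0.22 ± 0.27 for 226886_at (limma adjusted p = 0.761). Both adjusted p-values lie close under the threshold. Leaving out 1 array at a time ended the 202722_s_at call in 9 of 12 cases and the 202721_s_at call in 11 of 12, with adjusted p-values of 0.0771 to 0.157 and of 0.0544 to 0.157. The first call was kept without WT tetracycline replicate 1, WT untreated replicate 1 or WT untreated replicate 2, and the second only without WT tetracycline replicate 1. The differences themselves stayed within 1.07 to 1.30 and 1.42 to 1.79 through those omissions. Both calls were also lost with quantile normalization, without the filter and without the trend in the variance prior. Over all probe sets, 19 were called higher and 22 lower in this comparison, which is 46.3% higher, against 4 and 11, or 26.7% higher, after quantile normalization.

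In the mutant induction, 0 of 17 member probe sets were called by limma, and 0 had an unadjusted p under 0.05. The background was 0% called, with 620 probe sets (2.1%) at an unadjusted p under 0.05. With array weights in limma the members' count was also 0. The members' groups did not overlap in 2 probe sets, where 13.2% of all tested probe sets were apart, 6.86% higher and 6.39% lower. These were GFPT1 202722_s_at, higher with tetracycline, and OGT 229787_s_at, lower with tetracycline.

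The sequences just before the annotated starts of the genes called in the WT line are shown because XBP1 and ATF6 are known to bind CCACG-bearing elements upstream of stress-responsive genes. Each is the 250 bases before the RefSeq start in GRCh38.p14, read 5′ to 3′ on the minus strand where both genes lie, with CCACG or its reverse complement CGTGG in capitals. The GFPT1 window is chr2:69387228-69387477 and the OGA window is chr10:101818445-101818694.
GFPT1: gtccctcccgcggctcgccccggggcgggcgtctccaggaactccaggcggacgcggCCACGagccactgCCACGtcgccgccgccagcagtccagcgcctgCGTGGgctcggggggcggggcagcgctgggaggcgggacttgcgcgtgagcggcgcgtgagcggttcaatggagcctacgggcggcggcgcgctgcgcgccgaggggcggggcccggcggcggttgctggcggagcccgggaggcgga
OGA: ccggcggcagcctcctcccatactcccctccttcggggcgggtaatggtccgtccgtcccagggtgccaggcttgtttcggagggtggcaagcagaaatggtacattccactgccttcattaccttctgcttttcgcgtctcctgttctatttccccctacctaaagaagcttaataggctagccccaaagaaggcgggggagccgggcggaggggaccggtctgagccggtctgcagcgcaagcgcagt
The GFPT1 window held CCACG at 193 and 180 bases before the start on the sense strand and at 148 on the antisense strand. On both strands, 33.5% of 35116 windows of this length held CCACG, so its presence alone is common. Of the 8 member genes 5 held it in a window, UAP1, NAGK and OGT among them, which were not called with tetracycline. GFPT1 also held GCCACGT, which contains CCACG, as did PGM3 and 2.78% of all windows. Its window held no TGACGTGG, no complete endoplasmic reticulum stress element and no TGATGNAA, the last a form of the element that ATF4 binds, and neither did that of OGA. The OGA window held no CCACG. Such matches describe letters in these windows, not binding.

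GNPNAT1 and UAP1, the later enzymes of synthesis, did not rise with tetracycline in either line. GNPNAT1, on chromosome 14, read 11.95, 11.89 and 11.95 in WT cells with tetracycline, against 12.02, 11.93 and 12.10 in untreated WT cells (225853_at). The WT induction was -0.085 ± 0.11 (limma adjusted p = 0.618). UAP1, on chromosome 1, read 12.11, 11.80 and 11.93 with tetracycline, against 12.20, 12.15 and 12.12 in untreated WT cells (209340_at). The UAP1 groups did not overlap and tetracycline lay lower, at -0.21 ± 0.11, which missed the threshold (limma adjusted p = 0.215). In the mutant line UAP1 differed by 0.051 ± 0.11 and GNPNAT1 by -0.043 ± 0.11 (limma adjusted p = 1 for both). The salvage kinase NAGK, on chromosome 2, read 10.87, 10.57 and 9.93 with tetracycline, against 10.73, 10.19 and 10.56 in untreated WT cells (218231_at). Its arrays overlapped in every comparison, and its WT induction was -0.042 ± 0.23 (limma adjusted p = 0.921).

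OGA, the enzyme that takes O-GlcNAc off proteins, was called higher with tetracycline in the WT line in 1 of its 5 probe sets. It lies on chromosome 10 (chr10:101784450-101818444). The called probe set, 200898_s_at, read 10.71, 10.86 and 11.05 in WT cells with tetracycline, against 10.60, 9.89 and 10.18 in untreated WT cells. The groups did not overlap, though the nearest arrays were close. It rose by 0.65 ± 0.17, 1.57-fold (limma adjusted p = 0.0195), against 0.10 ± 0.17 in the mutant line (limma adjusted p = 1). The call was lost without WT tetracycline replicate 2 (adjusted p = 0.0561) or 3 (0.0805), and without WT untreated replicate 2 (0.0626) or 3 (0.0577), all by limma. It was lost too when the WT line was fitted alone (limma adjusted p = 0.119).

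The 200899_s_at probe set of OGA read 12.14, 12.21 and 12.26 in WT cells with tetracycline, against 11.86, 11.89 and 11.64 in untreated WT cells. Its mutant arrays read 11.29, 11.02 and 10.80 with tetracycline, against 11.39, 11.15 and 11.24 untreated. The WT groups did not overlap, and every WT array lay above every mutant array. The WT induction of 0.41 ± 0.14 missed the threshold (limma adjusted p = 0.0589). It passed with the stricter filter (0.0438) and without WT tetracycline replicate 1 (0.0423), both adjusted p-values by limma. For 223494_at the WT arrays read 8.89, 9.88 and 9.58 with tetracycline, against 9.12, 8.49 and 8.46 untreated, with overlap (0.76 ± 0.27, limma adjusted p = 0.0666). The dim probe sets 214972_at and 235868_at overlapped as well, at 0.40 ± 0.40 and 1.11 ± 0.49 (limma adjusted p = 0.539 and 0.137). Of these, 235868_at passed the filter only through the WT group with tetracycline, so its difference supports nothing about OGA. No OGA probe set was called in the difference of inductions, where 200899_s_at gave 0.63 ± 0.20 (limma adjusted p = 0.171) and 200898_s_at 0.55 ± 0.25 (0.32). An OGA response particular to the WT line was therefore not shown.

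**Figure D2:**
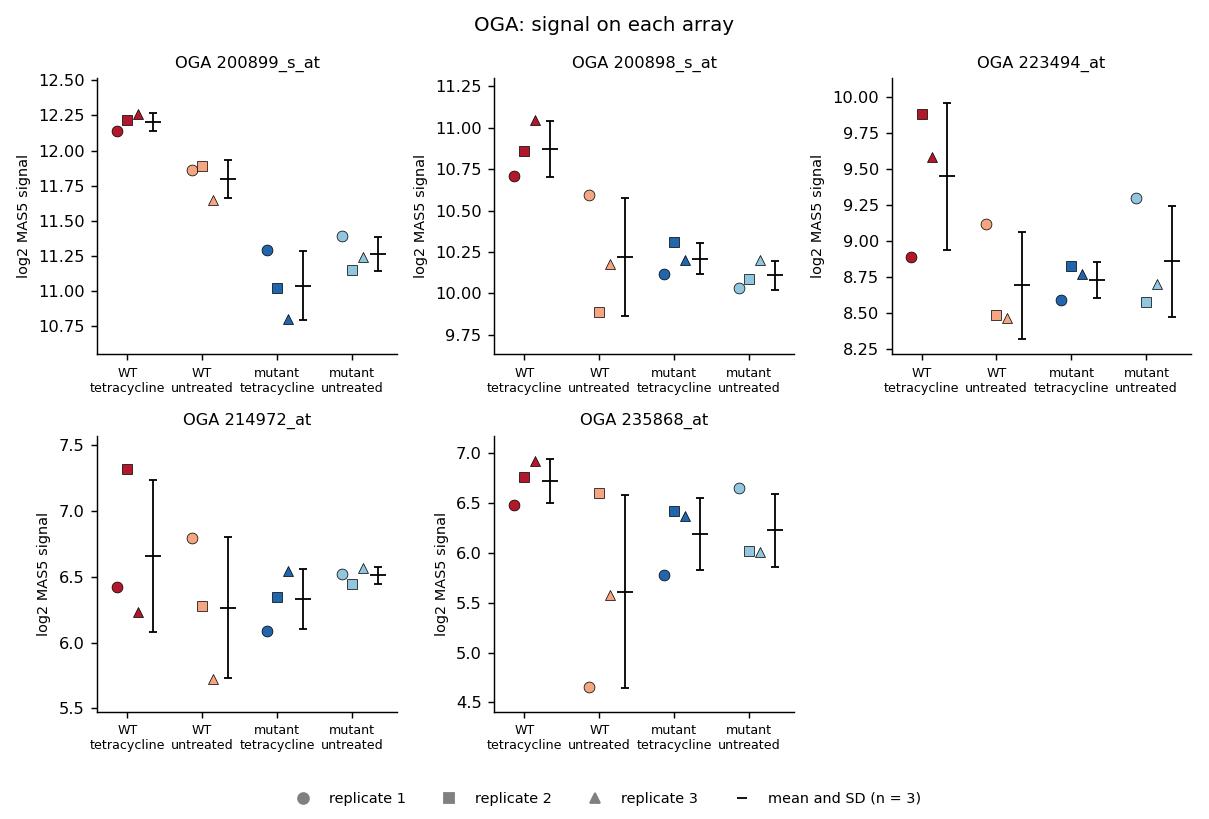
Log2 MAS5 signal of the 5 OGA probe sets on each of the 12 arrays, with bars for the mean and SD of each group of 3. In 200899_s_at the 6 WT line arrays lie above the 6 mutant line arrays, and in 200898_s_at the WT arrays with tetracycline lie between 10.71 and 11.05, above the other groups.

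OGT, the transferase that adds O-GlcNAc, was not called with tetracycline in either line. It lies on the X chromosome (chrX:71533104-71575892). Of its 6 probe sets 5 were tested, and 220594_at was too dim, with 4.88 to 6.38 over all arrays. The probe set that stood for OGT in the counts per gene, 209240_at, read 12.46, 12.29 and 11.87 in WT cells with tetracycline, against 12.86, 12.05 and 12.39 in untreated WT cells. The groups overlapped, at -0.23 ± 0.19 (limma adjusted p = 0.447). The WT induction of the other tested OGT probe sets ran from -0.35 to 0.023, and the mutant induction of all 5 from -0.40 to 0.18. In the mutant line, 229787_s_at read 8.10, 8.10 and 8.22 with tetracycline, against 8.68, 8.26 and 8.68 untreated, with no overlap but no call (-0.40 ± 0.21, limma adjusted p = 1).

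**Figure D3:**
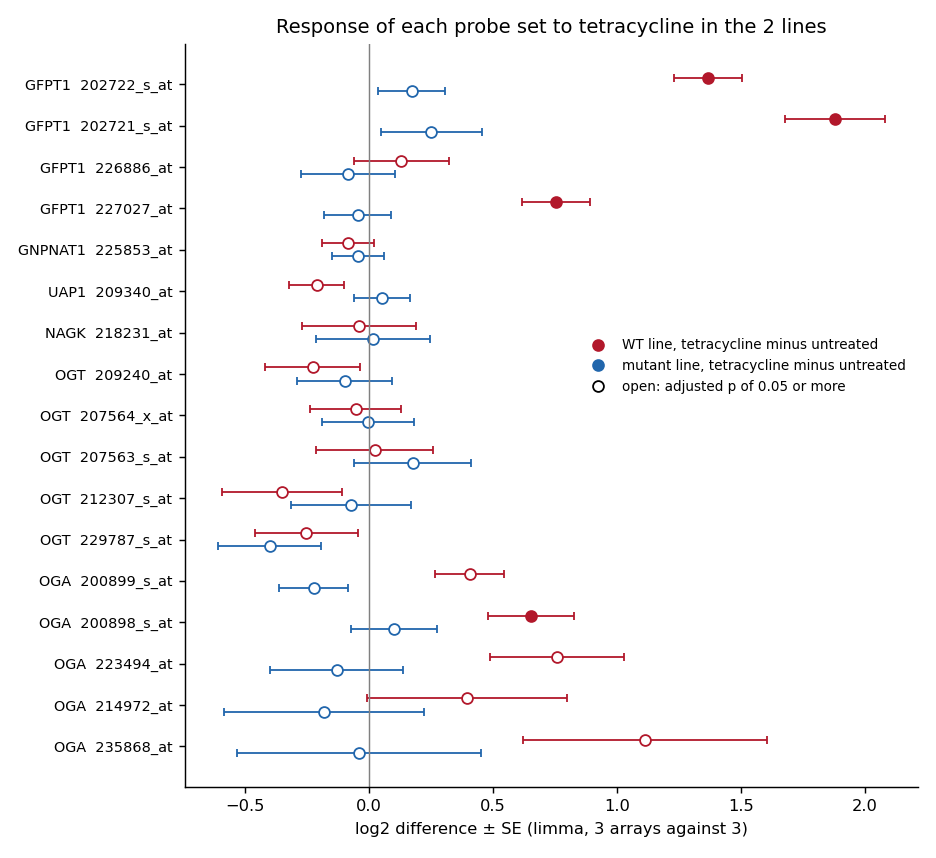
Log2 difference with tetracycline (± SE, 3 arrays against 3, limma) of the 17 tested probe sets, in the WT line in red and the mutant line in blue, with filled points for an adjusted p under 0.05. The filled points are 3 GFPT1 probe sets and OGA 200898_s_at, all in the WT line.

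Some probe sets of OGT, 1 of the 5 of OGA and that of GNPNAT1 differed between the lines before any tetracycline. Between the untreated lines (WT minus mutant), 5 of 17 member probe sets were called, 3 higher and 2 lower, against a background of 12.9% called in either direction, 4.19% higher and 8.7% lower. With tetracycline in both, 10 of 17 were called, 7 higher and 3 lower, against a background of 27.6%, 10.2% and 17.3%. The untreated lines did not overlap in 7 of 17 member probe sets, against 35.5% of all, and the lines with tetracycline in 11, against 41.5% of all, with 24.7% of all lower in the WT line. The 11 include OGA 235868_at, higher in the WT line, which passed the filter only through the WT group with tetracycline. Its place in that count therefore supports nothing. By 1 probe set per gene, 3 of 6 genes were called with tetracycline, all higher, against 13.3% of genes higher, 14.9% lower and 28.2% in either direction. Between the untreated lines 2 of 6 were called, both higher, against 5.84% of genes higher and 6.82% lower. The median over all tested probe sets was -0.092 between the untreated lines and -0.10 with tetracycline, and quantile normalization moved it to 0.014 and -0.0060. Of all probe sets called between the untreated lines, 32.5% were higher in the WT line, against 43.3% after quantile normalization. The lines are separate stable lines, so channel form and line cannot be told apart here.

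Probe sets of OGT disagreed between the lines. For 207564_x_at the WT line read 9.44, 9.32 and 9.51 with tetracycline and 9.62, 9.03 and 9.78 untreated, against 10.72, 10.51 and 10.59 with tetracycline and 10.64, 10.44 and 10.76 untreated in the mutant line. Every WT array lay below every mutant array, by -1.13 ± 0.19 untreated and -1.18 ± 0.19 with tetracycline (limma adjusted p = 0.00192 and 0.000582), and both calls held under each of 21 alternatives. The x_at suffix marks probes that can bind more than 1 transcript family. The 212307_s_at probe set was lower by -0.86 ± 0.24 untreated and -1.14 ± 0.24 with tetracycline (limma adjusted p = 0.0308 and 0.00383). Its untreated call was lost without WT untreated replicate 2 (-0.54) or without any 1 of the untreated mutant arrays. The 207563_s_at probe set was called lower only with tetracycline (-0.71 ± 0.24, limma adjusted p = 0.038), a call lost in 8 of 12 single omissions. The lines overlapped there. Untreated, they did not overlap and the WT line was lower too, at -0.55 ± 0.24 (limma adjusted p = 0.139).

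In the opposite direction, OGT 229787_s_at read 9.33, 8.99 and 8.89 with tetracycline and 9.62, 9.36 and 8.99 untreated in the WT line, against 8.10, 8.10 and 8.22 with tetracycline and 8.68, 8.26 and 8.68 untreated in the mutant line. It was higher in the WT line by 0.78 ± 0.21 untreated and 0.93 ± 0.21 with tetracycline (limma adjusted p = 0.0228 and 0.00484). Its untreated call was lost without WT untreated replicate 1 or 2 or mutant untreated replicate 1 or 2. The probe set 209240_at overlapped between the lines, at 0.039 ± 0.19 untreated (limma adjusted p = 0.923). Over the 12 arrays, 207564_x_at correlated at r = 0.94 with 212307_s_at and at -0.82 with 229787_s_at. These are therefore levels of probe sets, and no direction is given for OGT as a gene between the lines.

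**Figure D4:**
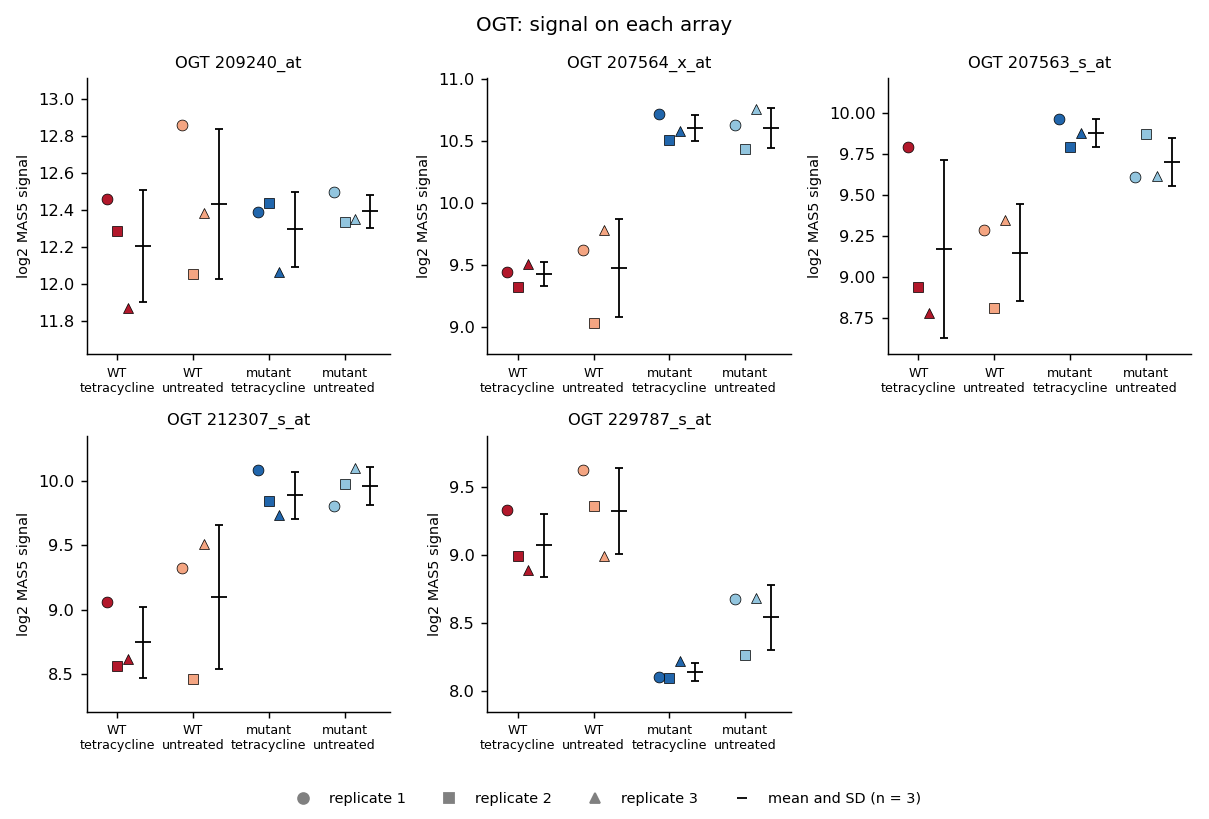
Log2 MAS5 signal of the OGT probe sets on each of the 12 arrays, with bars for the mean and SD of each group of 3. The WT line arrays lie below the mutant line arrays in 207564_x_at, above them in 229787_s_at and among them in 209240_at.

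GNPNAT1 and, untreated, 1 of 5 OGA probe sets were called higher in the WT line. OGA 200899_s_at differed by 0.54 ± 0.14 untreated, 1.45-fold, and by 1.17 ± 0.14 with tetracycline, 2.25-fold (limma adjusted p = 0.021 and 0.000134). Its untreated call was lost without WT untreated replicate 1 or 2 or mutant untreated replicate 2 or 3. With tetracycline, 200898_s_at was also higher, by 0.66 ± 0.17 (limma adjusted p = 0.0122), while the untreated lines overlapped (0.11 ± 0.17). The other 3 OGA probe sets lay lower in the untreated WT line, 223494_at at -0.17 ± 0.27, 214972_at at -0.25 ± 0.40 and 235868_at at -0.62 ± 0.49. With tetracycline they lay higher in the WT line, at 0.72 ± 0.27, 0.33 ± 0.40 and 0.53 ± 0.49 in the same order. None was called in either line comparison. Both untreated means of 235868_at, 5.61 in WT and 6.23 in mutant cells, lay under the filter. GNPNAT1 lay between 11.89 and 12.10 on the WT arrays given above, against 11.61, 11.64 and 11.65 with tetracycline and 11.68, 11.64 and 11.70 untreated in the mutant line, with no overlap. The difference was small, 0.34 ± 0.11 untreated and 0.30 ± 0.11 with tetracycline (limma adjusted p = 0.045 and 0.0459), and each call was lost in 9 of 12 single omissions and after quantile normalization. GFPT1 was not called between the untreated lines in any probe set, with 202722_s_at at -0.087 ± 0.14 (limma adjusted p = 0.732). Its 202721_s_at lay lower in the untreated WT line without overlap, at -0.31 ± 0.20 (limma adjusted p = 0.343), as 22.1% of all tested probe sets did. The other GFPT1 probe sets overlapped there. With tetracycline, 202722_s_at was 2.16-fold higher, 202721_s_at 2.49-fold and 227027_at 1.78-fold in the WT line (limma adjusted p = 0.000154, 0.000534 and 0.000776).

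Genes around the pathway were read from 5 lists, also chosen with earlier results known, of which 1 probe set per gene was used. The background over 13067 genes in the WT induction was 9.41% higher and 8.57% lower, with a median of 0.032. Of 15 tested genes of XBP1 and the unfolded protein response, 8 rose and 0 fell in the WT line, with a median of 0.72. XBP1, the factor that drives chaperone and secretory genes, read 11.89, 12.04 and 12.15 with tetracycline, against 11.01, 10.997 and 10.96 in untreated WT cells. It rose by 1.04 ± 0.13 (limma adjusted p = 0.000274), and the array does not tell its spliced form from the unspliced one here. ATF4, the factor of the integrated stress response, rose by 0.82 ± 0.12 (limma adjusted p = 0.000657). DDIT3, which encodes CHOP, rose by 2.06 ± 0.19, and HERPUD1, a part of endoplasmic reticulum degradation, by 1.08 ± 0.15 (limma adjusted p = 6.34e-05 and 0.000391). The calls of this list not named here were lost in 0 to 4 of 12 single omissions each.

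In the mutant line, 0 of these 15 genes were called, with a median of 0.093, against 0.016 over all genes. Over all 13067 genes 0% were called there too, so this count says nothing particular about the list. The difference of inductions was called for DDIT3 (1.81 ± 0.27, limma adjusted p = 0.0329) and not for XBP1 (0.83 ± 0.18, 0.0791) or ATF4 (0.52 ± 0.17, 0.194). The DDIT3 call was lost in 9 of 12 single omissions. GFPT1 was thus called in the same direction as XBP1 and ATF4 in the WT line, and these values come from the same arrays.

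The lists nearer to the sugar itself held calls in both directions, where 18% of all genes were called in either. Of 13 tested genes of salvage, sialic acid synthesis and UDP-sugar transport, 0 rose and 2 fell in the WT line, with a median of 0.025. The 2 were transporters of UDP-N-acetylglucosamine, SLC35B4 at -0.79 ± 0.21 and SLC35A3 at -0.69 ± 0.20 (limma adjusted p = 0.018 and 0.0298). Both calls were lost without WT tetracycline replicate 2 or 3, or WT untreated replicate 1 or 3. Of 21 transferases that use the sugar, 2 rose and 3 fell, with a median of 0.054. GCNT1, which branches O-glycans, fell by 1.16 (SE 0.20, limma adjusted p = 0.00187). MGAT5, which branches N-glycans, rose by 0.47 ± 0.13 (limma adjusted p = 0.0277), a call lost in 4 single omissions, those of the same arrays as for the transporters. The calls of the transferases not named here were lost in 4 to 8 of 12 single omissions each.

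Of 15 genes that supply glucose, glutamine and uridine nucleotides, 2 rose and 1 fell in the WT line, with a median of 0.022. SLC38A1, a glutamine transporter, rose by 0.49 ± 0.13 (limma adjusted p = 0.0167), a call lost without WT untreated replicate 3. The other two calls of this list, SLC2A3 and UMPS, were lost in 10 of 12 single omissions each. Of 8 tested partners of OGT, 2 rose and 1 fell, with a median of 0.22. TRAK2, an adaptor of mitochondrial transport that binds OGT, was lower at -0.71 ± 0.15 (limma adjusted p = 0.00501). TET1, a methylcytosine oxidase that binds OGT, rose by 0.54 ± 0.15 (limma adjusted p = 0.0232), a call lost without WT tetracycline replicate 2 or 3 or WT untreated replicate 3. The other partner that rose, TET3, lost its call in 10 of 12 single omissions. In the mutant line 0 genes of these 4 lists were called, and 0 in the difference of inductions, where the share over all genes was 0% and 0.145%, so these counts do not set the lists apart.

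**Figure D5:**
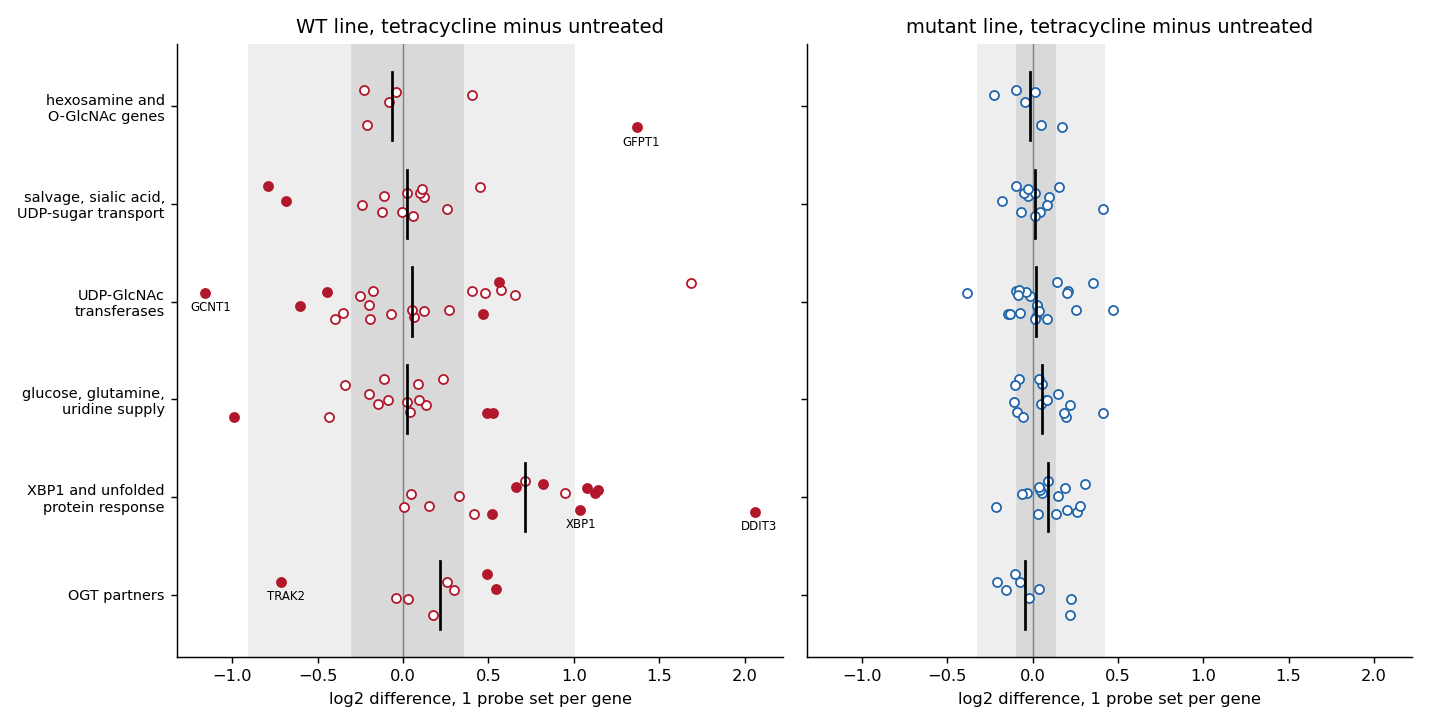
Log2 difference with tetracycline of 1 probe set per gene for the 6 measured hexosamine and O-GlcNAc genes and for the 5 lists around them, in the WT line on the left and the mutant line on the right. Filled points are called by limma, the vertical bar in each row is the list's median, and the light and dark grey bands run from the 5th to the 95th and from the 25th to the 75th percentile of all 13067 genes. On the left 8 of 15 genes of XBP1 and the unfolded protein response are filled, and none on the right.

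Between the untreated lines 12.7% of all genes were called in either direction, 5.84% higher and 6.82% lower. Each of the same lists held at most 1 gene higher and 1 lower, so these counts do not set the lists apart. Of 13 salvage and transport genes 1 was higher in the WT line, SLC35A1, the CMP-sialic acid transporter (0.56). In that list 1 was lower, UAP1L1, a relative of UAP1 (-0.96). Of the 21 transferases 0 were higher and 1 lower, EXTL3 (-1.24). Of the 15 supply genes 1 was higher, SLC38A1, and 1 lower, PFKL (-0.77). Of the 15 genes of the unfolded protein response list 1 was higher, DNAJB9, and of the 8 partners of OGT 1 was, TET1 (0.51). By limma with 1 array left out at a time, the PFKL call was lost only without mutant untreated replicate 3, and the calls of the other genes named here were lost in 4 to 9 of 12 omissions each. With tetracycline in both lines, 8 of 15 genes of the unfolded protein response list were higher and 0 lower, against 13.3% and 14.9% of all genes, and the other 4 lists held 1 or 2 genes higher and 0 to 3 lower each.

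The genes whose signal most resembled that of GFPT1 202722_s_at over the 12 arrays, by Pearson correlation among 13066 genes, were TMBIM6 (0.976), ZNF793-AS1 (0.972), FAM24B (0.971), TAF12 (0.964) and SGCB (0.963). For OGT 209240_at they were GOSR2 (0.934), ARHGAP1 (0.932) and ASXL3 (0.913). These are descriptions over 12 arrays that share 4 groups.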

How the data were processed

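Total RNA of 12 HEK samples was profiled on 1 Affymetrix array each. The authors deposited 1 intensity per probe set, a MAS5 signal per the submitters' processing notes; its version and settings are not given in the sources used here. The mean signal after trimming 2% at each end was 500.06 to 500.07 on every array. Signals were floored at 1 (0.337% of values lay under it) and taken to log2 here. The 62 control probe sets were left out. Tests covered the 29553 of 54675 probe sets with a group mean above 6.39, the median of all log2 values. Gene symbols came from the platform annotation, and 41091 probe sets carry 1 symbol. One model over all arrays with a mean per group was fitted in limma 3.58.1 (R 4.3.3, eBayes with trend), with 5 contrasts, each adjusted by Benjamini-Hochberg at 0.05. It was also run on simulated data with the same SD in every group, which cannot check it for the unequal spread of the lines. No 2 columns were identical, and the highest correlation between arrays was 0.9306. The number of arrays limits the precision. Upstream sequences came from RefSeq on GRCh38.p14.

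The members, the lists and the naming rule were chosen with earlier results of these data known. Every member probe set is described, and up to 4 called genes of a list are named in the WT induction and up to 2 in each other comparison. Likeness is the Pearson correlation with 5 genes named for GFPT1 and 3 for OGT. Alternatives were no filter, a stricter filter, an added offset, quantile normalization, no trend, fits of the compared arrays alone, a replicate block and each array left out in turn. Array weights and the omission of the replicate 3 arrays were added after seeing the data.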

Additional observations from a re-analysis of the deposited data

Results flagged for a closer look

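In 2 of the 4 GFPT1 probe sets the response to tetracycline differed between the lines by the test of the difference itself. It was larger in the WT line by 1.63 (log2) in 202721_s_at, with an induction of 1.88 in WT cells and 0.25 in mutant cells. In 202722_s_at it was larger by 1.20, with 1.37 in WT cells and 0.17 in mutant cells. Both limma adjusted p-values, 0.0485 and 0.0405, lie close under the threshold, and the calls ended in 11 and 9 of 12 single omissions. The other probe sets were not called, 227027_at at 0.80 and 226886_at at 0.22 (limma adjusted p = 0.0919 and 0.761). In 202721_s_at the untreated lines differed by -0.31 ± 0.20 (WT minus mutant, not called), which is part of its difference of 1.63.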

How the results depend on the processing

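In the WT induction the 4 member calls came to 3 to 6 with 1 array left out at a time, and to 2 without the 4 replicate 3 arrays, a setting chosen after seeing the data. Over all probe sets the calls came to 2743 to 8095 with 1 array left out, 1223 with the WT arrays alone and 534 without the replicate 3 arrays, against 5005. The mutant induction gave 0 member calls under each alternative, and 4 calls over all probe sets with array weights, also chosen after seeing the data. The 2 member calls in the difference of inductions came to 0 with no filter, with quantile normalization, without the trend and without the replicate 3 arrays, to 4 with array weights and to 0 to 4 with 1 array left out. Its 41 calls over all probe sets came to 8 with no filter, 89 with the stricter filter, 76 with the offset, 15 with quantile normalization, 6 without the trend, 2493 with array weights, 0 without the replicate 3 arrays and 0 to 2685 with 1 array left out. The 5 calls between the untreated lines came to 3 with quantile normalization, 2 without the trend, 2 without the replicate 3 arrays and 1 to 6 with 1 array left out; over all probe sets 3807 came to 1611 to 5358 with 1 array left out and to 1638 without the replicate 3 arrays. With tetracycline in both lines, the 10 member calls stayed within 7 to 11, 8 to 11 of them with 1 array left out, and the 8151 over all probe sets came to 5210 to 10243 and to 2668 without the replicate 3 arrays. With 1 array left out, the highest counts over all probe sets, 8095, 2685, 5358 and 10243, all came without WT tetracycline replicate 1. The cause of these shifts was not tested. NAGK 218231_at, at -0.042 in the WT induction, ran from -0.25 to 0.22 with 1 array left out and reversed to 0.22 without WT tetracycline replicate 3, 0.077 without WT untreated replicate 1 and 0.25 without the replicate 3 arrays, with no call.

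Replicate numbers are shared by the groups, but same-numbered arrays did not deviate together in every pair: the correlations of their deviations were 0.253, 0.240 and 0.0418 in the WT line and 0.137, 0.0258 and 0.210 in the mutant line. With the replicate block the member calls were 5, 0, 2, 5 and 10 in the WT induction, the mutant induction, the difference, the comparison of untreated lines and that with tetracycline. The fifth call in the WT induction was OGA 200899_s_at, whose limma adjusted p of 0.0589 became 0.0453. The block gave 76 calls over all probe sets in the difference.

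Arrays of 3 a group limit all of this, and the dim probe sets 214972_at and 235868_at of OGA and 220594_at of OGT lie near or under the filter.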
